A study of Mus musculus with 8 samples.

Results

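The genes described here are 32 markers of astrocytes and of the oligodendrocyte lineage, followed in RNA of CD11b-captured myeloid cells of the mouse. They were taken by symbol from the deposited gene table, and all 32 were found, each once, among its 38026 genes. Of the 32, 17 are astrocyte genes, 10 are genes of myelin and mature oligodendrocytes, 4 are regulators of the oligodendrocyte lineage, and the last is Ptgds, which encodes the lipocalin-type prostaglandin D synthase. The RNA-seq libraries fell into 2 groups, all from C57BL/6 mice. Tumor-associated microglia and macrophages (TAMs) of medulloblastoma, which arises in the cerebellum, gave 5 libraries, from mice 68, 90, 61, 66 and 62 days old (replicates 1 to 5). Normal microglia of the cerebral cortex gave 3 libraries, from mice 60 days old. Both groups were isolated by papain digestion, myelin depletion and capture on magnetic beads coated with antibody against CD11b, an integrin subunit of microglia, macrophages and granulocytes. Disease, brain region and age differ together between the groups and cannot be told apart. The sources used here do not give the genotype or agent that led to the tumors, nor whether animals were pooled.

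Astrocytes clear glutamate and potassium from around synapses, cover vessels with water channels and are joined to each other by gap junctions. They carry intermediate filaments of glial fibrillary acidic protein, which increase when astrocytes react to injury or tumor. Oligodendrocytes wrap axons in myelin, a stack of membranes held together by myelin basic protein and rich in galactolipids, and arise from precursors that carry the PDGF receptor alpha. Neither lineage is myeloid, so in cells captured through CD11b these genes can mark other cell types that the capture could hold. Some are also transcribed outside these lineages, as given below for Cnp and Mbp. Which cells made each transcript was not tested. In bulk RNA, fewer cells of a type and less RNA per cell cannot be told apart.

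Most of the 32 genes were lower in TAMs than in cortex microglia, but not evenly. Values are TPM, transcripts per 1000000 in a library, and fold changes are TAM over microglia on log2(TPM + 1), tested with limma across all genes at an adjusted p of 0.05. Depth is unknown, because TPM keeps no read totals. Over all tested genes the median log2 fold change was -0.65, a shift toward lower TPM in TAMs. Each fold change is therefore also given on rescaled TPM, in which each library is divided by the median of its gene ratios to the average library and the median fold change is -0.04. The test took genes at 1 TPM or more in at least 3 libraries, which kept 27 of the 32 and left out Ermn, Opalin, Ugt8a, Olig2 and Sox10. Of these 27, 7 reached 1 TPM in no TAM library and so entered through the microglia alone. Slc1a2, Slc4a4, Mobp, Mal and Pdgfra reached it in 1 TAM library and Gja1 and Fgfr3 in 2, so these too passed only with the microglia. All 32 could be fitted without the filter, where 28 were called lower and none higher, against 40.3% of all genes lower and 4.42% higher. On rescaled TPM without the filter 26 were lower and none higher, against 18.3% of all genes lower and 12.9% higher. By DESeq2 values in the authors' deposited table, 26 were lower and none higher, against 16.0% of all genes lower and 17.6% higher. With the filter, 25 of the 27 were called lower on TPM (56.4% of all tested genes) and 22 on rescaled TPM (25.0%). None was called higher on TPM or on rescaled TPM, against 8.22% and 24.5% of all tested genes, and 0 were higher at an unadjusted p under 0.05 by limma or in the authors' deposited table. The median log2 fold change of the 32 without the filter was -3.32, and -2.86 on rescaled TPM.

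In 27 of the 32 genes every TAM library lay below every microglia library, against 36.5% of all genes above 0 TPM in some library. On rescaled TPM this held for 24, against 19.6%. Of the 27 that passed the filter, 23 lay apart in this way on TPM and 20 on rescaled TPM, against 49.7% and 24.7% of all tested genes. The groups overlapped in TPM for S100b, Slc1a3, Olig1, Olig2 and Pdgfra, and on rescaled TPM also for Slc4a4, Aldh1l1 and Cnp. In TAMs the highest mean levels per length were those of Cnp (28.2 ± 3.35 TPM, SD, n = 5), Slc1a3 (23.5 ± 23.0 TPM), Mbp (12.8 ± 3.09 TPM), Mag (7.90 ± 2.28 TPM) and S100b (7.39 ± 3.20 TPM). Cnp and Slc1a3, and likewise Mag and S100b, do not differ beyond their spread in that order. In microglia the order was led by Ptgds, Sparcl1, Mbp, Clu and Gfap, at means of 601, 287, 256, 168 and 115 TPM, each with an SD so large that these neighbours overlap (SD 540.4, 177, 219, 127 and 89.1 TPM, n = 3).

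**Figure D1:**
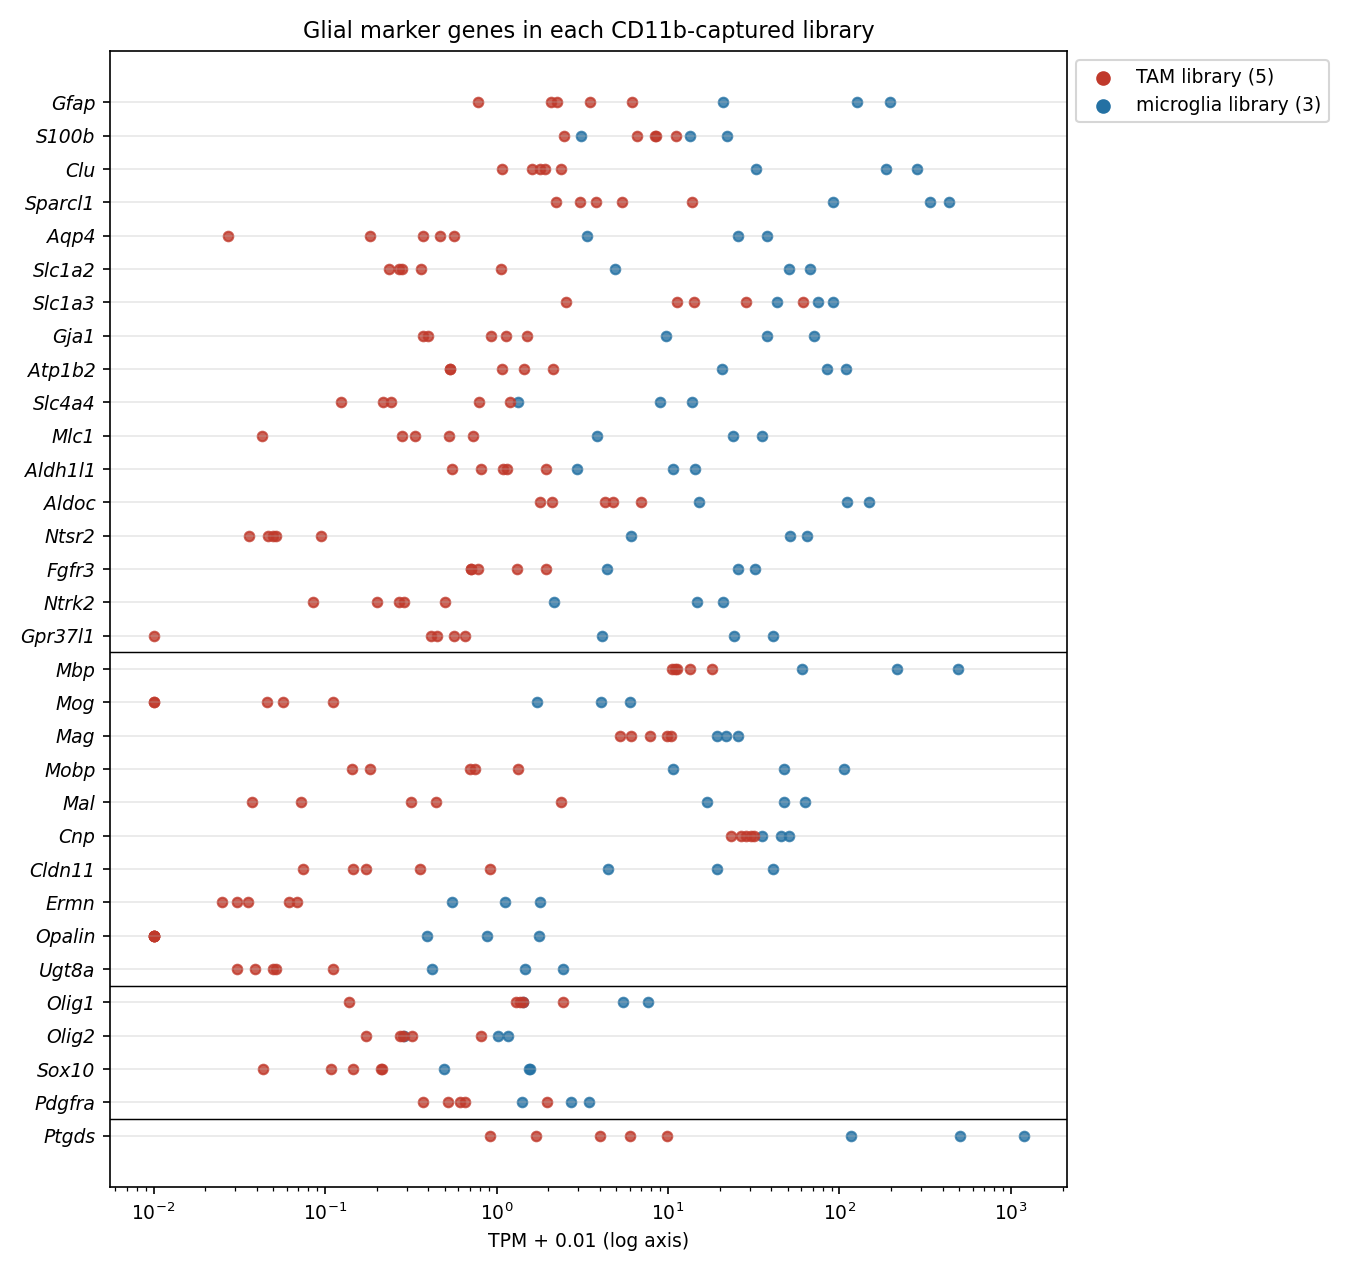
TPM (plus 0.01, log axis) of the 32 genes in each library, red for the 5 TAM and blue for the 3 microglia libraries; lines divide astrocyte genes, myelin genes, lineage regulators and Ptgds. The red points lie left of the blue ones for 27 genes, and the groups overlap for S100b, Slc1a3, Olig1, Olig2 and Pdgfra.

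Among the structural and secreted astrocyte genes, Gfap, Clu and Sparcl1 fell and S100b did not pass the test. Gfap, the intermediate filament of astrocytes (chromosome 11, 102887336 to 102900912 on mm10), was at 2.08, 0.770, 3.51, 2.24 and 6.20 TPM in TAM replicates 1 to 5, against 20.9, 198 and 126 TPM in microglia replicates 1 to 3. Every TAM library was below the lowest microglia library, and microglia replicate 1 was far below the other 2 microglia libraries. Gfap averaged 2.96 ± 2.05 TPM in TAMs against 115 ± 89.1 TPM in microglia (SD, n = 5 and 3; adjusted p = 0.00103, log2 fold change -4.53 with SE 0.71). Its log2 fold change was -3.92 with adjusted p = 0.00177 on rescaled TPM. Clu, which encodes the secreted chaperone clusterin, was at 1.79, 1.90, 1.07, 1.61 and 2.35 TPM in TAM replicates 1 to 5, against 32.4, 285 and 187 TPM in microglia replicates 1 to 3. The TAM values lay close together and well below microglia replicate 1, the lowest of its group (adjusted p = 0.000233, log2 fold change -5.49 with SE 0.61). Sparcl1, a matrix glycoprotein secreted by astrocytes that acts on synapse formation, was at 2.22, 3.78, 3.06, 5.36 and 13.8 TPM in TAM replicates 1 to 5, against 91.7, 435 and 336 TPM in microglia replicates 1 to 3. TAM replicate 5 stood above the other TAM libraries, yet below all microglia libraries (adjusted p = 0.000251, log2 fold change -5.39 with SE 0.61).

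S100b, a calcium-binding protein gene used as a marker of astrocytes, was at 6.55, 2.47, 8.45, 8.36 and 11.1 TPM in TAM replicates 1 to 5, against 3.09, 22.0 and 13.5 TPM in microglia replicates 1 to 3. The groups overlapped: 4 of 5 TAM libraries were above microglia replicate 1, and all were below the other 2 microglia libraries. Its log2 fold change was -0.52 (95% interval -1.85 to 0.82, adjusted p = 0.454), and 0.13 on rescaled TPM (95% interval -1.07 to 1.33), so its direction depended on the scale. In the authors' deposited table it was 0.12 (DESeq2 adjusted p = 0.929). These intervals still hold differences of more than 1 log2 unit. Without microglia replicate 1 it was called lower on TPM (log2 fold change -1.23, adjusted p = 0.0493). On rescaled TPM without that library, an alternative chosen after seeing the data, it was not called (-0.51, adjusted p = 0.384). The call thus depended on that library and on the scale. Within the microglia group S100b moved with Gfap, its ratio to Gfap being 0.107 to 0.148 in TPM. In TAMs the same ratio was 1.80 to 3.73.

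Of the 7 astrocyte transporters and channels 6 fell, and Slc1a3 did not pass the test. The glial glutamate transporters are Slc1a2 (GLT-1) and Slc1a3 (GLAST), which share the task of clearing synaptic glutamate. Slc1a2 was at 0.225, 0.353, 0.270, 0.259 and 1.06 TPM in TAM replicates 1 to 5, against 4.92, 66.9 and 50.5 TPM in microglia replicates 1 to 3. It was at about 1 TPM or below in all TAM libraries and below all microglia libraries (adjusted p = 0.00133, log2 fold change -4.29 with SE 0.71; -3.86 with adjusted p = 0.00186 on rescaled TPM). Slc1a3 (chromosome 15, 8634124 to 8710764 on mm10) was at 11.3, 2.55, 28.4, 61.3 and 14.2 TPM in TAM replicates 1 to 5, against 43.2, 92.0 and 75.2 TPM in microglia replicates 1 to 3. TAM replicate 4 was above microglia replicate 1, TAM replicate 2 was far below all other libraries, and the TAM values spanned a range of 24.0-fold. Slc1a3 did not pass the test (adjusted p = 0.050, log2 fold change -2.04 with SE 0.80; the p is above the threshold before rounding; 95% interval -3.87 to -0.22), nor on rescaled TPM (log2 fold change -1.36, 95% interval -3.27 to 0.55, adjusted p = 0.206). It was called lower on TPM without TAM replicate 2 (log2 fold change -1.49, adjusted p = 0.0464) or without TAM replicate 4 (-2.52, adjusted p = 0.0140). In the authors' deposited table it was -0.60 (DESeq2 adjusted p = 0.617). The ratio of Slc1a2 to Slc1a3 in TPM was 0.00422 to 0.138 in TAMs and 0.114 to 0.727 in microglia, and these ranges overlap through microglia replicate 1 and TAM replicate 2.

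The promoters of Gfap and Slc1a3 are shown because both genes mark astrocytes and parted in these data. They are RefSeq windows of 300 bases on GRCm38.p6, from 250 bases before to 50 after the annotated start, at chr11:102897151-102897450 on the minus strand for Gfap and chr15:8710758-8711057 on the minus strand for Slc1a3. Capitals mark the letters TTCNNNGAA on either strand, the core that STAT factors bind, STAT3 being a known activator of Gfap.
Gfap: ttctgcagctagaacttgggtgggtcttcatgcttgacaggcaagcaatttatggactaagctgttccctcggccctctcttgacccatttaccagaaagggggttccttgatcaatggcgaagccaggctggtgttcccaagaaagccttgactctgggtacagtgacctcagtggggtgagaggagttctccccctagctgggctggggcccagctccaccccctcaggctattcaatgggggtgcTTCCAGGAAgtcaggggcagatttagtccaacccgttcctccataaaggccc
Slc1a3: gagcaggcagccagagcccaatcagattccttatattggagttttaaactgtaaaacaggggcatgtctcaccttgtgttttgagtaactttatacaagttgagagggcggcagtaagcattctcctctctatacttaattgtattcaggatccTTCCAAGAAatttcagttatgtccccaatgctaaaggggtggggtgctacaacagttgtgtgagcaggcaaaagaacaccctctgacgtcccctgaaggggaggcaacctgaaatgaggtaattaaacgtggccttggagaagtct
Each window held these letters 1 time, as did 8.33% of all 32544 promoters at least once. The letters are a description of the window and say nothing of binding in these cells.

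The other 5 transporter and channel genes fell. Aqp4, the water channel of astrocyte endfeet, averaged 0.313 ± 0.217 TPM in TAMs against 22.2 ± 17.5 TPM in microglia (adjusted p = 0.00148, log2 fold change -3.67 with SE 0.63), with 0.0173 TPM in TAM replicate 2 and at most 0.552 TPM in the rest. Gja1 encodes connexin 43, the main gap junction protein of astrocytes, and averaged 0.857 ± 0.484 TPM in TAMs against 39.7 ± 30.8 TPM in microglia (adjusted p = 0.000498, log2 fold change -4.11 with SE 0.55). Atp1b2, a beta subunit of the sodium pump, averaged 1.13 ± 0.671 TPM in TAMs against 71.6 ± 45.7 TPM in microglia (adjusted p = 0.000198, log2 fold change -4.85 with SE 0.51). Mlc1, a membrane protein of astrocyte endfeet mutated in a human leukodystrophy, averaged 0.373 ± 0.259 TPM in TAMs against 20.9 ± 15.8 TPM in microglia (adjusted p = 0.00116, log2 fold change -3.59 with SE 0.58). In all 4 genes no TAM library reached the level of microglia replicate 1, on TPM or on rescaled TPM. Slc4a4, a sodium bicarbonate cotransporter, fell less (adjusted p = 0.00768, log2 fold change -2.27 with SE 0.56), and its highest TAM value, 1.18 TPM in replicate 1, was next to the 1.32 TPM of microglia replicate 1.

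The enzymes and receptors of astrocytes fell in all 6 cases on both scales. Ntsr2, a neurotensin receptor found mainly on astrocytes, had the widest gap, as a ratio of mean TPM, of the 31 genes above 0 TPM in TAMs. It was at 0.0263, 0.0419, 0.0400, 0.0368 and 0.0848 TPM in TAM replicates 1 to 5, against 6.10, 65.0 and 51.4 TPM in microglia replicates 1 to 3. No TAM library reached 0.1 TPM, and the log2 fold change of -4.80 (SE 0.64, adjusted p = 0.000498) understates the gap because of the added 1 TPM. The authors' deposited table gave it -8.23 (DESeq2 adjusted p = 1.16e-32). The ratio of Ntsr2 to Gfap in TPM was 0.0114 to 0.0544 in TAMs and 0.293 to 0.409 in microglia, so the 2 astrocyte genes were not lower by the same factor. Aldoc, the brain form of the glycolytic enzyme aldolase, was at 1.79, 6.92, 4.27, 2.09 and 4.80 TPM in TAM replicates 1 to 5, against 15.1, 148 and 111 TPM in microglia replicates 1 to 3. TAM replicate 2, the lowest TAM library for Gfap and S100b, was the highest for Aldoc (adjusted p = 0.00210, log2 fold change -3.81 with SE 0.70). Aldh1l1, a folate enzyme and widely used astrocyte marker, was at 1.93, 0.537, 0.806, 1.14 and 1.09 TPM in TAM replicates 1 to 5, against 2.94, 14.5 and 10.7 TPM in microglia replicates 1 to 3. Every TAM library was below microglia replicate 1 in TPM, but the groups overlapped on rescaled TPM. Its log2 fold change was -2.12 (SE 0.43, adjusted p = 0.00319) and -1.60 with adjusted p = 0.00978 on rescaled TPM. Fgfr3, an FGF receptor of astrocytes and their progenitors, averaged 1.08 ± 0.536 TPM in TAMs against 20.8 ± 14.5 TPM in microglia (log2 fold change -3.05). Ntrk2, the receptor of brain-derived neurotrophic factor, whose truncated form is abundant in astrocytes, averaged 0.259 ± 0.152 TPM in TAMs against 12.6 ± 9.52 TPM in microglia (-3.04). Gpr37l1, a glial receptor, averaged 0.409 ± 0.247 TPM in TAMs against 23.1 ± 18.4 TPM in microglia (-3.66) and was listed at 0 in TAM replicate 2.

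**Figure D2:**
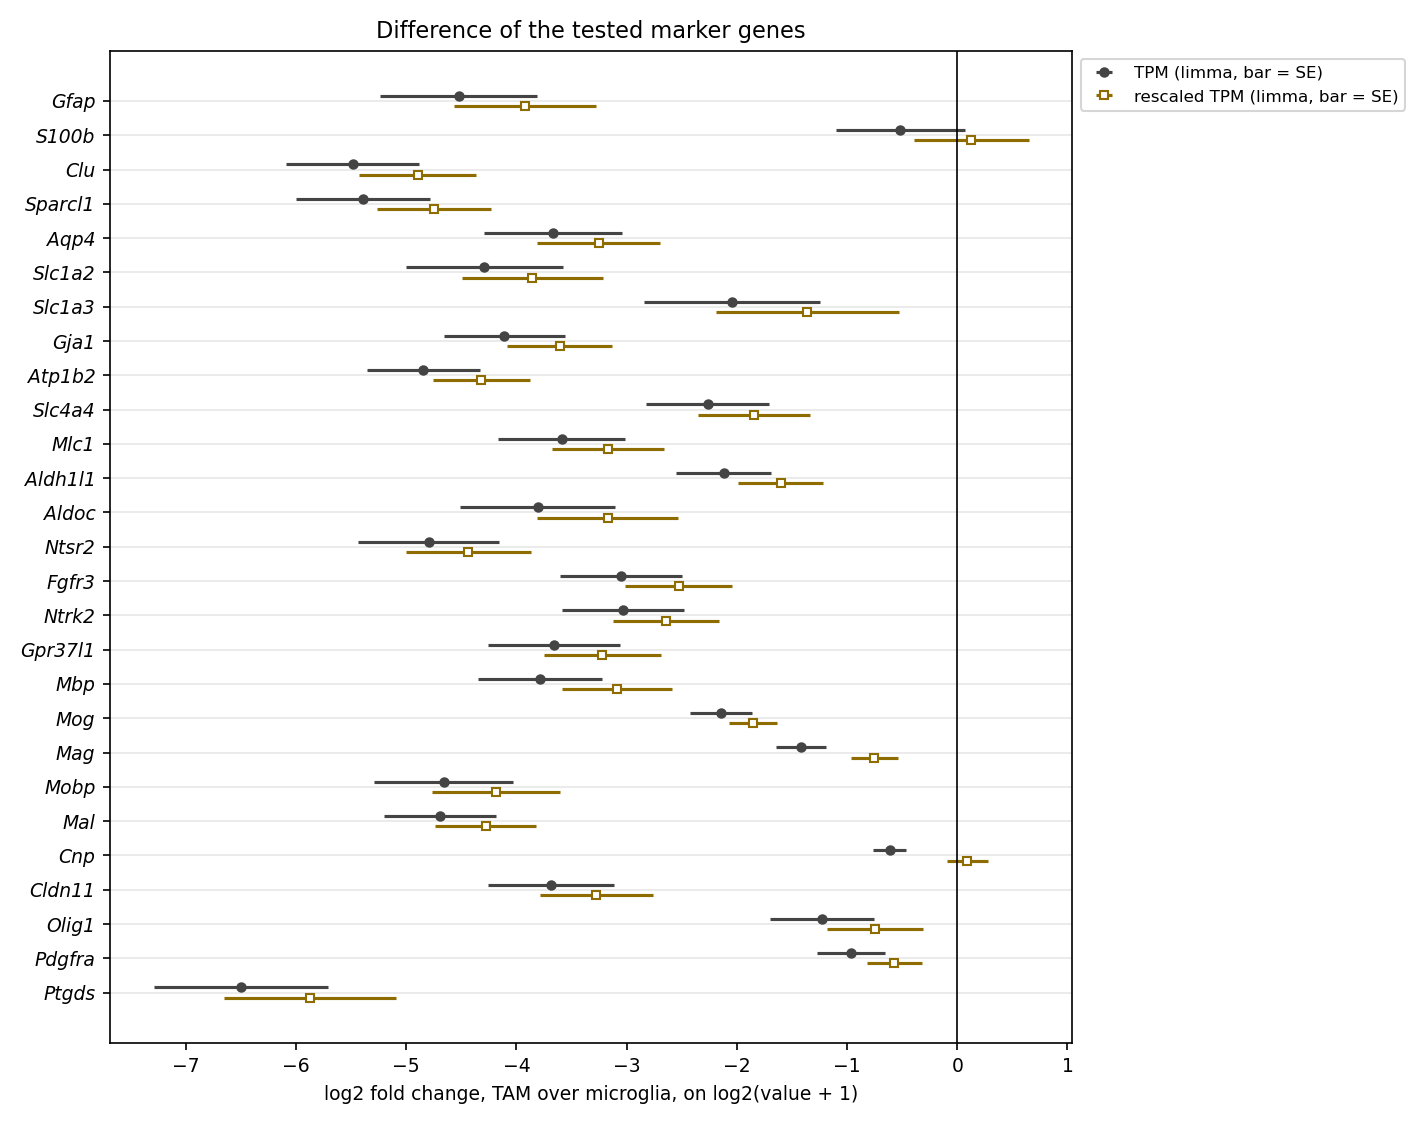
Log2 fold change, TAM over microglia, of the 27 genes that passed the filter, on log2(TPM + 1) (filled) and on rescaled TPM (open), with limma's SE. With 1 TPM added, Ptgds lies farthest below 0, and S100b and Cnp lie below 0 on TPM and above 0 on rescaled TPM.

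As a sum, the 17 astrocyte genes came to 31.8, 23.1, 54.5, 86.6 and 62.7 TPM in TAM replicates 1 to 5, against 270.0, 1687 and 1206 TPM in microglia replicates 1 to 3. The sums of the TAM libraries were all below that of microglia replicate 1. The make-up of the sum also differed between the groups. S100b took 9.65% to 20.6% in TAMs and 1.12% to 1.31% in microglia, and Slc1a3 took 11.0% to 70.7% in TAMs and 5.45% to 16.0% in microglia, overlapping through TAM replicate 2 and microglia replicate 1. Sparcl1 took 5.62% to 21.9% in TAMs and 25.8% to 34.0% in microglia, and Clu took 1.85% to 8.22% in TAMs and 12.0% to 16.9% in microglia. Gfap kept overlapping shares, 2.58% to 9.88% in TAMs and 7.73% to 11.7% in microglia. Of the 17 genes, 9 had a smaller share in all TAM libraries than in all microglia libraries, 2 (S100b and Aldh1l1) a larger one, and 6 overlapped. Shares within a sum depend on each other, so a large share of Slc1a3 lowers the rest, and no test was made. In the 3 microglia libraries the share of S100b was nearly constant, while the sum itself differed by 6.25-fold between replicates 2 and 1.

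**Figure D3:**
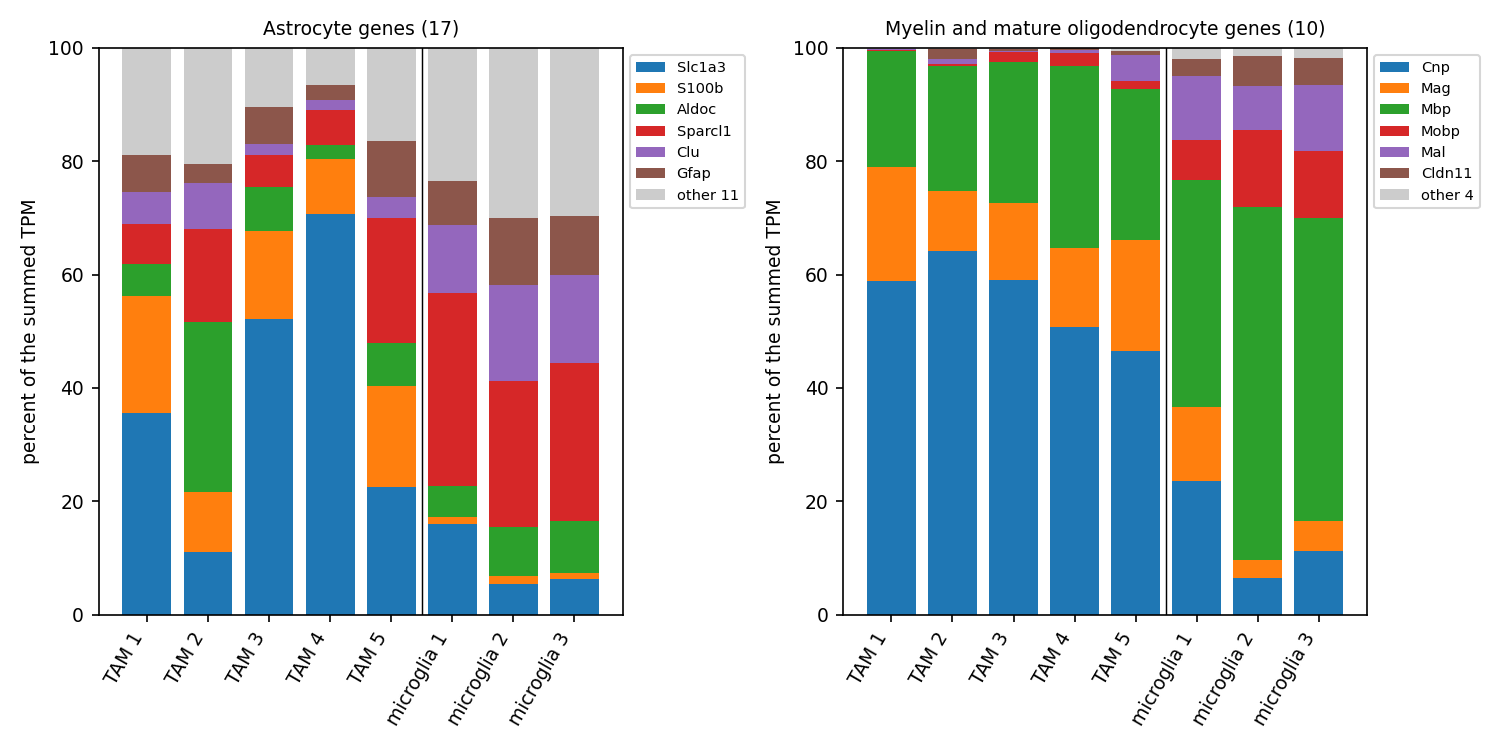
Share of each gene in the summed TPM of the 17 astrocyte genes (left) and of the 10 myelin genes (right), 1 bar per library, TAMs before microglia. Slc1a3 and S100b take most of the astrocyte bar in TAM replicates 1, 3 and 4, and Cnp takes 46.5% to 64.2% of the myelin bar in TAMs and 6.42% to 23.6% in microglia.

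The 10 myelin genes differed in their level in TAMs: 7 of them were near or below 1 TPM on average, while Cnp, Mbp and Mag were at several TPM or more. That split is not one of change, since Mbp fell far (log2 fold change -3.78) and Cnp (-0.61) and Mag (-1.42) fell less. Ermn, Opalin and Ugt8a were low in microglia too, at means of 1.15, 1.00 and 1.43 TPM. All 10 were called lower on TPM without the filter and 9 on rescaled TPM, Cnp being the exception. Mbp, which encodes myelin basic protein and from whose gene transcripts of the immune system (golli) are also made, was at 10.6, 10.9, 11.2, 18.0 and 13.4 TPM in TAM replicates 1 to 5, against 60.1, 492 and 216 TPM in microglia replicates 1 to 3. All TAM values were between 10.6 and 18.0 TPM, below every microglia library (adjusted p = 0.000798, log2 fold change -3.78 with SE 0.56; -3.09 with adjusted p = 0.00168 on rescaled TPM). Mobp, a myelin protein of the compact sheath, was at 0.133, 0.173, 0.739, 1.33 and 0.686 TPM in TAM replicates 1 to 5, against 10.6, 107 and 47.4 TPM in microglia replicates 1 to 3. It was lower in every TAM library (adjusted p = 0.000525, log2 fold change -4.66 with SE 0.63). Mog, the myelin oligodendrocyte glycoprotein on the outer face of the sheath, was at 0.0469, 0, 0.0359, 0 and 0.101 TPM in TAM replicates 1 to 5, against 1.71, 5.99 and 4.05 TPM in microglia replicates 1 to 3. It was listed at 0 in TAM replicates 2 and 4 (adjusted p = 0.000485, log2 fold change -2.14 with SE 0.28). Opalin, an oligodendrocyte membrane protein, was listed at 0 in all 5 TAM libraries and was at 0.381, 1.76 and 0.866 TPM in microglia replicates 1 to 3.

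Mal, a membrane proteolipid, was at 0.0273, 0.435, 0.0625, 0.306 and 2.37 TPM in TAM replicates 1 to 5, against 16.9, 62.6 and 47.3 TPM in microglia replicates 1 to 3. TAM replicate 5 was well above the other TAM libraries and still below every microglia library (adjusted p = 0.000212, log2 fold change -4.69 with SE 0.51). Cldn11, the claudin of the tight junctions between myelin layers, averaged 0.323 ± 0.342 TPM in TAMs against 21.5 ± 18.2 TPM in microglia (adjusted p = 0.000950, log2 fold change -3.69 with SE 0.57). Ermn, an actin-binding protein of mature oligodendrocytes, and Ugt8a, the enzyme that makes galactocerebroside, were too low for the filter. Ermn averaged 0.0344 ± 0.0197 TPM in TAMs against 1.15 ± 0.626 TPM in microglia, and Ugt8a 0.0465 ± 0.0316 TPM in TAMs against 1.43 ± 1.01 TPM in microglia. Both were called lower without the filter (log2 fold change -1.01, adjusted p = 0.00266 for Ermn, and -1.13, adjusted p = 0.00821 for Ugt8a). In both genes no TAM library reached the lowest microglia library.

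Cnp encodes a phosphodiesterase abundant in non-compact myelin and is also transcribed in other cells. It (chromosome 11, 100574904 to 100591729 on mm10) was at 30.6, 31.8, 26.6, 28.6 and 23.3 TPM in TAM replicates 1 to 5, against 35.4, 50.8 and 45.3 TPM in microglia replicates 1 to 3. The TAM values were the tightest of the 32 genes relative to their mean, and each was below the lowest microglia value. Cnp fell on TPM (adjusted p = 0.00704, log2 fold change -0.61 with SE 0.15), but this difference was about that of the median gene, and on rescaled TPM it was 0.09 (95% interval -0.34 to 0.52, adjusted p = 0.711), a sign opposite to that on TPM. In the authors' deposited table it was 0.24 (DESeq2 adjusted p = 0.516). Of the exon bases of Cnp, 4.23% are shared with Dnajc7 on the opposite strand, which averaged 103 TPM in TAMs and 295 TPM in microglia. The sources used here do not say whether the counting used strand, so a part of the Cnp value may not be its own.

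Mag encodes the myelin-associated glycoprotein, a sialic acid-binding lectin (Siglec) of the innermost myelin layer. It was at 10.5, 5.25, 6.09, 7.84 and 9.85 TPM in TAM replicates 1 to 5, against 19.4, 25.7 and 21.7 TPM in microglia replicates 1 to 3. The groups did not overlap, and Mag fell (adjusted p = 0.00115, log2 fold change -1.42 with SE 0.23; -0.75 with adjusted p = 0.0197 on rescaled TPM). In the authors' deposited table it was -0.65 (DESeq2 adjusted p = 0.0414). The 3 microglia libraries were within 1.33-fold of each other, whereas Mobp in the same libraries differed by 10.1-fold. The ratio of Mog to Mag in TPM was 0 to 0.0103 in TAMs and 0.0883 to 0.233 in microglia. The ratio of Mbp to Cnp was 0.343 to 0.630 in TAMs and 1.70 to 9.68 in microglia. As a sum the 10 myelin genes came to 52.0, 49.5, 45.0, 56.2 and 50.2 TPM in TAM replicates 1 to 5, against 149.9, 790.4 and 405 TPM in microglia replicates 1 to 3. In TAMs this sum varied little from library to library, since Cnp, Mbp and Mag made up nearly all of it. Of the 10 genes, 8 had a smaller share of the sum in all TAM libraries than in all microglia libraries, Cnp a larger one, and Mag overlapped.

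The promoters of Mobp and Cnp are shown as a myelin gene that was much lower in TAMs and the one that was least lower, from RefSeq on GRCm38.p6, at chr9:120149492-120149791 for Mobp and chr11:100574689-100574988 for Cnp, both on the plus strand. Capitals mark ACAAAG, read as CTTTGT on the other strand, a core bound by SOX factors, among them SOX10, which drives myelin genes.
Mobp: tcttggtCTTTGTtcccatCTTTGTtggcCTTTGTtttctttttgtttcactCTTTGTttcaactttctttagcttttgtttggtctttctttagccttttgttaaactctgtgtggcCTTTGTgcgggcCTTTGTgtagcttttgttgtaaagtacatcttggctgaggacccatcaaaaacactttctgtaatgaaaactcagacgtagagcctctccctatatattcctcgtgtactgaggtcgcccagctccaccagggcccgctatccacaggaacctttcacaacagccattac
Cnp: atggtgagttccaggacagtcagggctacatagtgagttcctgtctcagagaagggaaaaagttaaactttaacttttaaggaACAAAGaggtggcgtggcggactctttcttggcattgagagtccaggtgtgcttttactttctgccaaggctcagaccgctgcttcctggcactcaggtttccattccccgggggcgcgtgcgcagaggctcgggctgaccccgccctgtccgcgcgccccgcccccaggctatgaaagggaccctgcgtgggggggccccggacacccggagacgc
The Mobp window held the letters 6 times and the Cnp window 1 time. The windows of Mog, Mal, Cldn11, Ermn and Ugt8a, also lower in TAMs, held 0. The Opalin window held 2, and each of the 2 overlapping windows of Mag held 1. The letters are a description of the windows and say nothing of binding in these cells. Whether they go with the differences was not tested. At least 1 match was present in 18.7% of all 32544 promoters and in 20.0% of the 30 windows of 25 marker genes found in the RefSeq table. As many as 6 were found in the Mobp window alone (0.00307% of the promoters). The letters CAGCTG were in 16.4% of all promoters and 13.3% of these 30 windows (the E-box of OLIG factors), and TTCNNNGAA in 8.33% and 23.3%. The 7 windows with TTCNNNGAA belong to 5 genes, 3 of them being windows of Mag, of which 2 overlap.

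The 4 lineage regulators were low in all libraries, with a median log2 fold change of -0.94 without the filter and -0.62 on rescaled TPM. Sox10 alone of them was called lower on both. Olig1 and Olig2 encode the basic helix-loop-helix factors that specify the oligodendrocyte lineage. Olig1 was at 1.30, 0.128, 1.36, 1.41 and 2.43 TPM in TAM replicates 1 to 5, against 1.41, 7.64 and 5.45 TPM in microglia replicates 1 to 3. TAM replicate 5 was above microglia replicate 1, TAM replicate 4 was level with it, and TAM replicate 2 was the lowest of all libraries. It was called lower on TPM (adjusted p = 0.0470, log2 fold change -1.23 with SE 0.47), was not called on rescaled TPM (log2 fold change -0.75, 95% interval -1.75 to 0.25, adjusted p = 0.185), and lost its call under 14 alternatives in all, among them leaving out TAM replicate 1, 2, 3 or 4 or microglia replicate 2 or 3 (adjusted p = 0.0698 to 0.194). Olig2 was at 0.313, 0.163, 0.276, 0.265 and 0.797 TPM in TAM replicates 1 to 5, against 0.279, 1.01 and 1.16 TPM in microglia replicates 1 to 3. It did not reach the filter and was not called without it (log2 fold change -0.40, 95% interval -0.88 to 0.08, adjusted p = 0.158). Microglia replicate 1 was inside the range of the TAM libraries.

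Sox10, the transcription factor needed for myelination, was at 0.0977, 0.0336, 0.203, 0.206 and 0.136 TPM in TAM replicates 1 to 5, against 0.482, 1.53 and 1.56 TPM in microglia replicates 1 to 3. No TAM library reached the lowest microglia library, and Sox10 was called lower without the filter (log2 fold change -0.91, adjusted p = 0.00601, and -0.67, adjusted p = 0.0102, on rescaled TPM). Pdgfra, the receptor that marks oligodendrocyte precursors and also fibroblasts of the meninges, was at 0.647, 0.363, 0.605, 0.513 and 1.96 TPM in TAM replicates 1 to 5, against 1.39, 3.47 and 2.70 TPM in microglia replicates 1 to 3. TAM replicate 5 was above microglia replicate 1 and the rest of the TAM libraries were below 0.7 TPM. Pdgfra fell on TPM (adjusted p = 0.0232, log2 fold change -0.97 with SE 0.31) but was not called on rescaled TPM (log2 fold change -0.57, 95% interval -1.15 to 0.01, adjusted p = 0.0930), nor without microglia replicate 2 or 3 (adjusted p = 0.110 and 0.0876). The authors' deposited table gave Olig1 -0.92 (DESeq2 adjusted p = 0.307), Olig2 -0.34 (DESeq2 adjusted p = 0.740) and Pdgfra -0.82 (DESeq2 adjusted p = 0.140). Of the sum of the 4 regulators, Sox10 made up 2.56% to 8.60% in TAMs and 11.2% to 14.4% in microglia, the only one of them with a smaller share in every TAM library, and Olig2 11.0% to 23.7% in TAMs and 7.41% to 10.7% in microglia, the only one with a larger share.

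Ptgds is made by mature oligodendrocytes, by the meninges and by the choroid plexus. It was at 6.02, 0.909, 1.68, 9.84 and 4.00 TPM in TAM replicates 1 to 5, against 117, 1184 and 502 TPM in microglia replicates 1 to 3. It was the most abundant of the 32 genes in all 3 microglia libraries, and no TAM library reached 10 TPM (adjusted p = 0.000330, log2 fold change -6.50 with SE 0.79; -5.87 with adjusted p = 0.000689 on rescaled TPM). With 1 TPM added, this was the largest log2 fold change of the 27 tested. With 0.1 TPM added, Ntsr2 was lower still (log2 fold change -7.57, against -6.92 for Ptgds), as in the authors' deposited table (-8.23 for Ntsr2 and -5.58 for Ptgds).

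The microglia libraries differed strongly among themselves in these genes. All 32 genes were lowest in microglia replicate 1, where 74.9% of all tested genes were lowest, and 30 were highest in replicate 2. The level in replicate 2 was more than 4 times that in replicate 1 for 23 of the 32 genes and 21 of the 27 tested, against 4.63% of all tested genes, whose median ratio was 1.30. The ratio ran from 1.33 for Mag, 1.43 for Cnp and 2.13 for Slc1a3 to 13.6 for Slc1a2. Its median was 9.13 over the 17 astrocyte genes, 4.16 over the 10 myelin genes and 3.40 over the 4 regulators. It was 3.55 over 12 endothelial genes, 3.92 over 12 neuron genes and 0.911 over 10 myeloid genes. Even so, the 17 astrocyte genes of replicate 1 summed to 3.12 times the highest TAM library and the 10 myelin genes to 2.67 times, whereas the 4 regulators summed to 0.671 times. Without microglia replicate 1, 20 of the 32 genes passed the filter, since a gene then needs a TAM library at 1 TPM, and 19 of those 20 were lower. Without microglia replicate 2 or 3 the count was 16 of 20 each. Lower calls over all tested genes fell as well, from 8610 to 7985 without microglia replicate 1, 5581 without replicate 2 and 5760 without replicate 3.

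Among the TAM libraries, replicate 5 was highest for 19 of the 31 genes above 0 in any of them (61.3%), close to the 59.4% of all tested genes that were highest there. TAM replicate 2, from the oldest mouse, was lowest for 16 of the 31 (51.6%), against 26.6% of all tested genes. It was lowest for S100b, Slc1a3, Gfap, Aqp4, Mlc1 and Ntrk2 and for all 4 lineage regulators, but highest for Aldoc, Fgfr3, Cnp and Cldn11. The TAM libraries did not hold these genes in a fixed ratio.

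Markers of vessels, mural cells and meninges were lower in TAMs along with these genes, and the part of other cell types in the differences was not tested. The 12 endothelial genes summed to 14.7 to 113 TPM in TAMs and 746 to 2501 TPM in microglia, the 10 mural cell genes to 7.84 to 31.2 TPM in TAMs and 423 to 1076 TPM in microglia and the 8 meningeal fibroblast genes to 4.44 to 32.3 TPM in TAMs and 52.4 to 157 TPM in microglia. All 12 endothelial and 10 mural genes were called lower in TAMs on TPM (12 and 9 on rescaled TPM), and none was at 0 in all TAM libraries. These counts and the meningeal ones stand against 56.4% of all tested genes called lower on TPM and 25.0% on rescaled TPM. The most abundant of them were Cldn5 and Ly6c1 of endothelium and Rgs5 and Vtn of mural cells. Meningeal fibroblasts also make Pdgfra and Ptgds, and all 8 of their genes, led by Igf2 and Dcn, were lower on TPM and 5 on rescaled TPM. The 12 neuron genes summed to 8.35 to 26.8 TPM in TAMs and 25.6 to 106 TPM in microglia, which overlap. Of the 5 that passed the filter, 3 were lower on TPM, Camk2a and Stmn2 among them, near the 56.4% of all tested genes. The 1 that was higher on TPM was Tubb3, named after its value was seen. On rescaled TPM 3 were lower and 2 higher, against 25.0% and 24.5% of all tested genes. Genes of the granule lineage and of Hedgehog-driven tumors summed to 6.78 to 89.5 TPM in TAMs and 13.5 to 58.0 TPM in microglia, which overlap, with 89.5 TPM in TAM replicate 5 and at most 19.2 TPM in the other TAM libraries. Of the 10 of them that passed the filter, 4 were called higher in TAMs and 1 (Zic2) lower, on both scales. Of all tested genes 8.22% were higher on TPM and 24.5% on rescaled TPM. The 4 were Atoh1, Neurod1, Barhl1 and Insm1, named after their values were seen. They were below 1 TPM in every microglia library and so passed the filter through TAMs alone. Without the filter 2 of the 12 were higher and 1 lower, against 4.42% and 40.3% of all genes. On rescaled TPM without the filter 3 were higher and 1 lower, against 12.9% and 18.3%. All 12 of these genes, led by Zic1 and Zic2, were highest in TAM replicate 5 among the TAM libraries. That library was also the highest of the TAM libraries for Gfap, Sparcl1, Olig1, Olig2 and Pdgfra, and for 59.4% of all tested genes. The 5 choroid plexus genes, of a tissue that also makes Ptgds, summed to 1.05 to 8.91 TPM in TAMs and 1.81 to 3.85 TPM in microglia, with Folr1 the most abundant. Ttr, their defining transcript, was listed at 0 in TAM replicates 1, 2 and 4, was at 0.605 and 4.88 TPM in TAM replicates 3 and 5, and was at 0.0903 to 0.247 TPM in microglia. The 6 ependymal genes, led by Rarres2 and Ccdc153, of which 3 were listed at 0 in all TAM libraries, summed to 0.128 to 2.26 TPM in TAMs and 9.03 to 23.9 TPM in microglia. The captured cells carried their own markers in both groups: 10 myeloid genes, among them C1qa, summed to 9868 to 21767 TPM in TAMs and 20316 to 24829.5 TPM in microglia, with TAM replicate 2 the lowest.

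**Figure D4:**
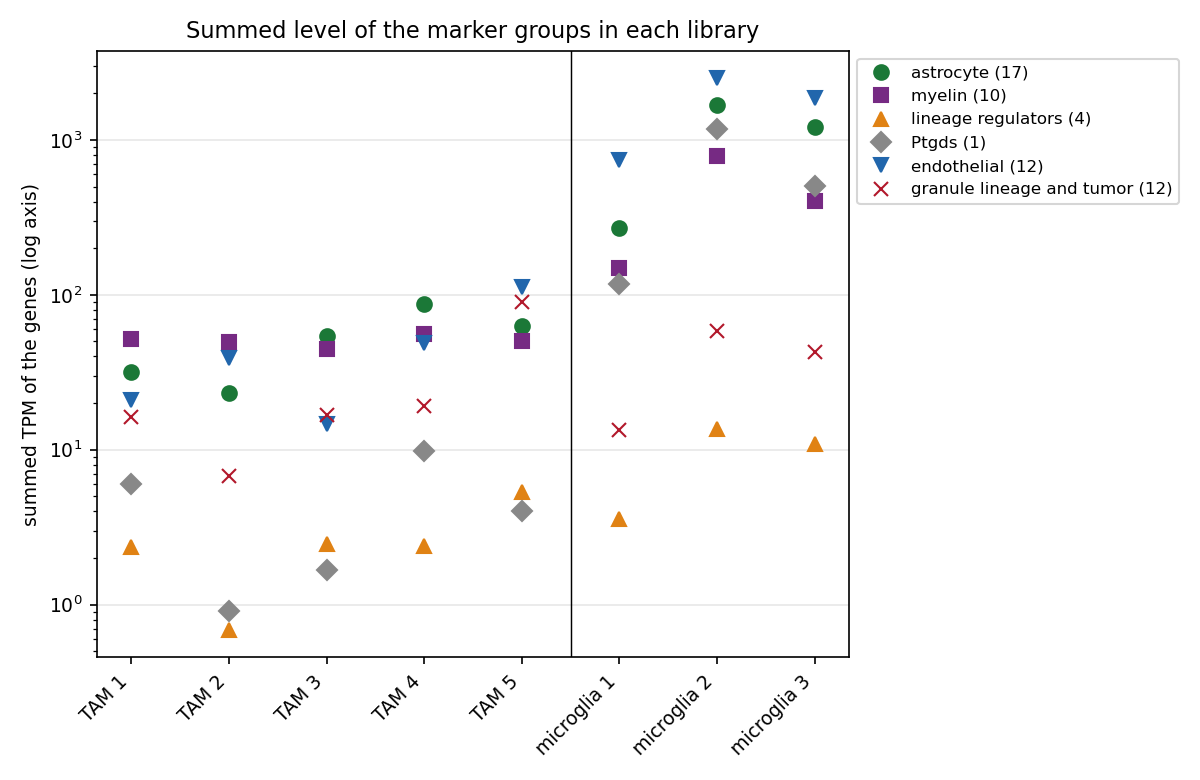
Summed TPM (log axis) of the marker groups in each library, TAMs left of microglia; the number of genes in a group is in brackets. The astrocyte, myelin, Ptgds and endothelial sums are lower in all TAM libraries than in all microglia libraries, while the lineage regulators and the granule lineage genes overlap.

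Further lists of glial genes differed in how far they went with the 32 genes. They are read against the 56.4% of all tested genes called lower on TPM and the 25.0% on rescaled TPM. Of 25 other astrocyte genes 20 passed the filter, and 18 were lower and none higher on TPM (17 and 1 on rescaled TPM; 0 higher at an unadjusted p under 0.05 by limma on TPM), with a median log2 fold change of -2.53. Glul, the glutamine synthetase that converts glutamate taken up by astrocytes and is also made by microglia, averaged 563 ± 126 TPM in TAMs against 2490.0 ± 418 TPM in microglia (adjusted p = 0.000110, log2 fold change -2.16). In TAMs it was far above all of the 32 genes. Ndrg2 and the zinc transporter Slc39a12 were the other 2 with the lowest p (adjusted p = 0.000788, log2 fold change -3.75, and adjusted p = 0.000322, log2 fold change -2.78). The exceptions, chosen after their values were seen, were Slc14a1, a urea transporter, and Kcnj10, the potassium channel Kir4.1 of astrocytes, which averaged 18.1 ± 5.00 TPM in TAMs against 10.9 ± 6.22 TPM in microglia. Kcnj10 was not called on TPM (log2 fold change 0.82, adjusted p = 0.0920), whereas on rescaled TPM it was called higher (1.49, adjusted p = 0.00990).

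Of 25 other genes of myelin 15 passed the filter, and 9 were lower and 2 higher on TPM (9 and 3 on rescaled TPM). The 9 of 15 are near the share of all tested genes on TPM, but above the 25.0% on rescaled TPM. Without the filter 19 of the 25 were lower, against 40.3% of all genes (18 against 18.3% on rescaled TPM). Ppp1r14a, which encodes an inhibitor of a protein phosphatase, was among those with the lowest p (adjusted p = 0.000195, log2 fold change -2.98). So was the tetraspanin gene Tspan2 (adjusted p = 0.000459, log2 fold change -2.31). The 2 that rose, chosen after their values were seen, were Trf, which encodes transferrin, at 980.1 ± 155 TPM in TAMs against 620.1 ± 112 TPM in microglia, and Anln, which encodes the cell division protein anillin, at 3.89 ± 0.950 TPM in TAMs against 0.863 ± 0.0889 TPM in microglia. Sirt2 was not called on TPM and was called higher on rescaled TPM. In the authors' deposited table it was higher as well (log2 fold change 0.71, DESeq2 adjusted p = 0.000667). Of 14 other precursor genes found, 3 passed the filter, of which Cspg4, the NG2 proteoglycan of precursors and pericytes, was lower on TPM (adjusted p = 0.0119, log2 fold change -1.58) and not called on rescaled TPM (adjusted p = 0.0663). The 1 of 3 is below the share of all tested genes on TPM. Without the filter 9 of the 14 precursor genes were lower, against 40.3% of all genes (8 against 18.3% on rescaled TPM). Of 12 genes of reactive astrocytes 9 passed the filter. Of these, 3 fell and 1 rose on TPM, the 3 again below the share of all tested genes called lower. On rescaled TPM 3 fell and 2 rose, against 25.0% and 24.5% of all tested genes. Without the filter 5 of the 12 were lower, against 40.3% of all genes (4 against 18.3% on rescaled TPM). Hspb1, a small heat shock protein, fell (adjusted p = 2.69e-05, log2 fold change -3.72). S1pr3, a sphingosine phosphate receptor, fell (adjusted p = 0.000252, log2 fold change -2.18). Osmr, the oncostatin M receptor, fell (adjusted p = 0.00114, log2 fold change -2.51). Cd44, a hyaluronan receptor that macrophages also carry, rose (adjusted p = 0.00442, log2 fold change 2.16), and on rescaled TPM Lcn2 was called higher too; both were chosen after their values were seen. Vim and Cp were also picked with their values known, and both were highest in TAM replicate 2, at 395 and 89.0 TPM. Of 6 genes of Bergmann glia, the radial astrocytes of the cerebellum, Hopx alone passed the filter and was lower on TPM only (adjusted p = 0.0460, log2 fold change -1.22). Fitted without the filter, 3 of the 6 were lower, against 40.3% of all genes (3 against 18.3% on rescaled TPM).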

How the data were processed

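All 8 libraries, 5 of TAMs and 3 of cortex microglia, were used. TPM values (transcripts per 1000000 within a library) were deposited by the authors in 1 table, per the file headers. The same table holds the authors' deposited log2 fold change, p-value and mean normalized signal (baseMean) of 1 comparison. DESeq2, FastQC and build mm10 are named, without versions, per the submitters' processing notes; the sources used here do not give the aligner, the counter or the use of strand. Another 3 columns of values matched no sample and were not used. Depth is unknown. TPM totals per library were 990422 to 997832.

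Genes at 1 TPM or more in at least 3 libraries (15262) were tested on log2(TPM + 1) with limma 3.58.1 (trend, R 4.3.3), with Benjamini-Hochberg adjustment over all genes tested and a threshold of 0.05. The added 1 TPM understates changes of low genes. Rescaled TPM, no filter (27465 genes), a mean filter, a pseudocount of 0.1, leaving out 3 abundant features, age as a covariate, a replicate block and leaving out each library were alternatives. The authors' p-values (27039) were adjusted by Benjamini-Hochberg here. The fit was tested on simulated data. Nothing in the labels says that libraries are separate animals beyond their ages, so p-values measure the spread between these samples. The replicate numbers were not treated as pairs. No member had a copy at 95% identity over 80% of its length, and 8 share exon bases with another annotated gene (GENCODE M21).

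The members and lists were chosen with earlier results of these data known. The text names all 32 members, the 3 called genes with the lowest p of each further glial list, and the 2 most abundant genes of each list of other cells, except 2 genes that are not reported here.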

Additional observations from a re-analysis of the deposited data

Results flagged for a closer look

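TAM replicate 5 stood apart from the other TAM libraries in 7 of the 34 values examined, 31 genes and 3 sums. The gap to the nearest library, as a share of the whole range, was then above 0.71. That is the 95% critical value of Dixon's test for 5 samples, which chance exceeds in about 1 in 20 groups of normally distributed values. The gap was taken on TPM without logs, where a high value stretches the range, so this rate need not hold here. It was not computed on a log scale, and the flags are a description only. Slc1a2 was at 1.06 TPM there and at 0.225 to 0.353 TPM in the other 4 TAM libraries, a gap of 0.846 of the range. Mal was at 2.37 TPM there and at 0.0273 to 0.435 TPM in the other 4 TAM libraries, a gap of 0.826 of the range. Pdgfra was at 1.96 TPM there and at 0.363 to 0.647 TPM in the other 4 TAM libraries, a gap of 0.822 of the range. Olig2 was at 0.797 TPM there and at 0.163 to 0.313 TPM in the other 4 TAM libraries, a gap of 0.763 of the range. For 3 further genes the gap was smaller. Sparcl1 was at 13.8 TPM there and at 2.22 to 5.36 TPM in the other 4 TAM libraries, a gap of 0.728 of the range. Ugt8a was at 0.101 TPM there and at 0.0208 to 0.0415 TPM in the other 4 TAM libraries, a gap of 0.742 of the range. Ntsr2 was at 0.0848 TPM there and at 0.0263 to 0.0419 TPM in the other 4 TAM libraries, a gap of 0.733 of the range. These genes come from 1 library and are not independent of each other. The gap was not computed over all genes, so the 7 have no share of all genes to stand against. That library was the highest TAM library for 59.4% of all tested genes. Its median gene ratio to the average library was 0.971, against 0.698 to 0.756 in the other 4 TAM libraries. In that library the granule lineage and tumor genes summed to 89.5 TPM and the endothelial genes to 113 TPM, the highest of the TAM libraries, and their part in these values was not tested. Without TAM replicate 5, 25 of 27 tested marker genes were lower, the same number as with it. Lower calls over all tested genes then came to 9243, against 8610 with it.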

How the results depend on the processing

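Of the 27 tested genes, 21 kept their direction and their side of the threshold under the alternatives run for them; the exceptions were Cnp, Olig1, Pdgfra, S100b, Slc1a3 and Slc4a4, whose causes were not tested. For 7 of the 21 (Aqp4, Mlc1, Ntsr2, Ntrk2, Gpr37l1, Mog and Cldn11) leaving out a microglia library gave no value, because they then missed the filter. S100b (log2 fold change -0.52) was 0.13 on rescaled TPM, 0.0177 with age as a covariate, -1.23 to 0.0115 with a library left out (without microglia replicates 1 and 2 at these ends) and 0.12 in the authors' deposited table. Cnp (-0.61) was 0.0889 on rescaled TPM, 0.0238 on rescaled TPM without microglia replicate 1, an alternative chosen after seeing the data, and 0.24 in the authors' deposited table. Pdgfra was also not called with age as a covariate (adjusted p = 0.0864).

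The 25 genes called lower became 15 on rescaled TPM without microglia replicate 1, and 16 to 25 when a library was left out. Where a microglia library is left out, 20 genes pass the filter, so fewer are tested: 19 were lower without microglia replicate 1 and 16 without replicate 2 or 3. None was called higher with any library left out.

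Of the genes in the further glial lists 31 were lower and 3 higher. Lower calls came to 56 without the filter, where more genes are tested, 53 in the authors' deposited table and 18 to 32 with a library left out, the 18 being without microglia replicate 2 and without replicate 3. Higher calls came to 6 on rescaled TPM, 5 without 3 abundant features, 6 on rescaled TPM without microglia replicate 1, 7 in the authors' deposited table and 3 to 4 with a library left out.

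Over all genes, 8610 lower and 1254 higher calls became 3819 and 3735 on rescaled TPM, 2932 and 3318 on rescaled TPM without microglia replicate 1, and 4324 and 4763 in the authors' deposited table. With a library left out they were 5581 to 9243 and 894 to 1303, the 5581 being without microglia replicate 2.

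With the replicate number as a block, 24 genes were lower and 0 higher, 30 and 4 in the further lists, and 8613 and 1103 of all genes. Slc1a3 was then called (log2 fold change -2.64, adjusted p = 0.0369), and Slc4a4 (-2.29, adjusted p = 0.0663) and Olig1 (-1.49, adjusted p = 0.0935) were not. Deviations of same-numbered libraries correlated at 0.150, 0.0139 and -0.0508 across genes. These values lie within the -0.246 to 0.181 of differently numbered libraries, so they do not show whether the numbers pair the samples.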
